A study of Mus musculus with 92 samples.

Results

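Kcng4 encodes a voltage-gated potassium channel subunit, Kv6.4, and was 1 of 13441 genes measured in the quadriceps muscle of 92 mice. It was selected on the spread of its own expression values between these animals, so its distribution is given as a description and is not tested. The animals were DOz mice, which are outbred and so differ genetically from one another. All ate standard chow throughout life and were about 18 to 20 weeks old. The labels give this 1 group, so no treatment could be compared, and each animal gave 1 library of polyadenylated RNA. Sex and genotype were not analysed here. The p-values below measure the spread between animals. In whole muscle, fewer cells of a type and less RNA per cell cannot be told apart.

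Kv channels are assembled from 4 subunits that together line a potassium-selective pore and open when the membrane depolarises. Kcng4 belongs to the electrically silent subunits, which do not form a channel alone. They join subunits of the Kv2 family and change the voltage range and kinetics of the resulting channel. In skeletal muscle, potassium channels return the fibre membrane to rest after an action potential.

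On mm10 (GRCm38, GENCODE M21), Kcng4 lies at chr8:119623854-119635680 on the minus strand and has 2 annotated transcripts. Its merged exons span 3806 bases. None of its 3806 transcript 31-mers, the 31-base words that an assignment of reads to transcripts relies on, occurred in a transcript of another gene, which is 0 shared. No other GENCODE gene overlaps its exons. RefSeq adds a pair of predicted long noncoding RNAs over its span, Gm46055 and Gm46054, which were not analysed here. The 250 bases before the RefSeq start are printed for Kcng4 and for Gm32352, a neighbouring noncoding RNA whose level followed that of Kcng4, because these promoters belong to 2 genes that varied together. Both come from RefSeq (GRCm38.p6), on the minus strand, from chr8:119635681-119635930 for Kcng4 and chr8:119670937-119671186 for Gm32352. The letters CANNTG (an E-box, the general recognition motif of muscle basic helix-loop-helix factors), searched on both strands, are in capitals.
Kcng4: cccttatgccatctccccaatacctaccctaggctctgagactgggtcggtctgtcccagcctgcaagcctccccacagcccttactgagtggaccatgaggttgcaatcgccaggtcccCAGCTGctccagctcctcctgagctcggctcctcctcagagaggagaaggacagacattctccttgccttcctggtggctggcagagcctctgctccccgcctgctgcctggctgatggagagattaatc
Gm32352: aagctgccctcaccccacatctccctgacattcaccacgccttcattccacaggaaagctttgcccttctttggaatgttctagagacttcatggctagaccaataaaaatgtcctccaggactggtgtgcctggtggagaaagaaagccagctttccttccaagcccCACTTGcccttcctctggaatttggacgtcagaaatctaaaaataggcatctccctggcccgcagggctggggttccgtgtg
Each promoter held 1 match, with the letters CAGCTG in Kcng4 and CACTTG in Gm32352. Of 27025 promoters of the same length, 66.04% held at least 1 CANNTG. Neither promoter held TATAAA, present in 12.97% of promoters, or GGGCGG, present in 32.9%. GC content was 60.4% in the Kcng4 promoter and 52% in the Gm32352 promoter, and each had 4 CG dinucleotides beside a median of 6 over all promoters. These matches describe letters in a window and show no binding.

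The level of Kcng4 fell into 2 separate sets of animals. In 83 animals it lay between 3.98 and 6.98 on the log2 per-million scale, with a median of 5.64 (49.8 on the linear per-million scale). In the other 9 animals it was -3.21, -0.35, -0.05, 0.67, 0.68, 0.76, 1.13, 1.27 and 2.14. The values just inside and just outside the lower set were 2.14 and 3.98, a step of 1.84, while no step within the upper 83 animals exceeded 0.43. A wider step, of 2.86, separated the single lowest animal from the next. Its value of -3.21 is near the low end of the table, whose lowest value is -4.73. Log2 distances there depend on a prior count that is not known. Over all 92 animals, the mean was 5.08 ± 1.76 (SD, n = 92), the median was 5.56 and the middle 50% of animals lay between 4.81 and 6.005. On the log2(value + 1) scale the SD was 1.44.

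**Figure D1:**
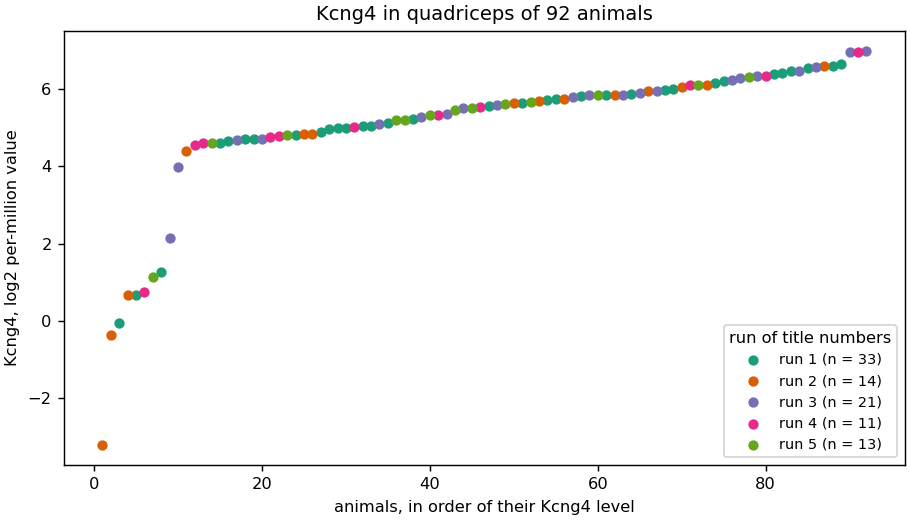
Kcng4 level (y axis, deposited log2 per-million value) of each of the 92 animals in rising order (x axis), 1 point per animal, coloured by the run of sample title numbers. The 9 lowest animals, at or below 2.14, come from all 5 runs and stand apart from the 83 animals at or above 3.98.

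Set beside other genes, the SD of 1.76 was 7.61 times the 0.23 that a smooth trend of SD on mean gave at the level of Kcng4, and the median SD of all genes was 0.32. Among the 11116 genes with a mean of at least 1, Kcng4 ranked 37 by SD, 10 by the excess of its SD over the trend and 20 by the width of the step. Inside the upper 83 animals the SD was 0.68. These ranks restate the property for which the gene was taken.

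The low animals were not confined to a run of sample titles. The title numbers fall into 5 runs, of 33, 14, 21, 11 and 13 animals, whose meaning the labels do not give. The runs held 3, 3, 1, 1 and 1 of the low animals, in that order. Mean Kcng4 in the runs was 5.13, 4.20, 5.59, 4.98 and 5.13. The median log2 value of the 9 libraries ran from 3.434 to 3.526 and that of the other 83 from 3.434 to 3.554, and the lowest of all 92 belonged to 1 of the 9. On each of the first 3 principal components of all genes, Kcng4 included, the scores of the 9 lay within those of the other 83 animals. Of 7 marker scores for other cell types, given with the lists below, 2 reached outside those of the other animals: the blood score, up to 3.97 against a highest of 2.57, and the macrophage score, down to -2.08 against a lowest of -1.96. The part of these cells in the Kcng4 level was not tested. The muscle genes Myh4 (fast myosin heavy chain), Acta1 (skeletal alpha-actin) and Ckm (muscle creatine kinase) were abundant in every library, and Myh4 ranged from 14.96 to 16.41.

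Genes whose level followed Kcng4 across the 92 animals were few, and 3 of the 4 found were its neighbours on chromosome 8. The association was fitted for each of 13440 genes by limma as a slope, the log2 change per SD of Kcng4, with Benjamini-Hochberg adjustment over all of them. At an adjusted p under 0.05, 4 genes (0.0298%) were called. All 4 rose with Kcng4 and 0 fell. At an unadjusted p under 0.05 there were 881 genes (6.56%), of which 440 had rising and 441 falling slopes. The 4 genes were Wfdc1, a secreted protein with a WAP-type protease inhibitor domain; Gm32352, a noncoding RNA antisense to Wfdc1; Meak7, a protein that associates with mTOR; and Car7, a cytosolic carbonic anhydrase. Gm32352 and Car7 had means below 1. Car7 falls outside the rule for naming genes and was taken up after its values were seen.

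Wfdc1 had the steepest slope of the 4. It lies at chr8:119666365-119688222 on the plus strand, and its start is 31 kb from that of Kcng4. Its log2 level was 2.59 in the lowest animal, 5.10 at the median and 5.74 in the highest. It rose by 0.54 ± 0.04 (SE, n = 92) per SD of Kcng4 (limma, adjusted p = 3.95e-17), and the slope was positive in each of the 5 runs, from 0.09 to 1.09. The 6 animals with the lowest Wfdc1 were all among the 9 lowest for Kcng4. In the order of Kcng4 given above, Wfdc1 in those 9 was 3.20, 2.62, 2.92, 2.59, 2.91, 5.21, 4.38, 4.66 and 2.60. Of these values, 6 lay below the 3.96 that was the lowest of the other 83 animals, and the remaining 3 lay inside their range.

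Gm32352 is annotated as an antisense transcript at chr8:119659475-119670881 on the minus strand. Its span overlaps that of Wfdc1 on the opposite strand, the exons of the 2 genes do not overlap, and it shared 0 of its 31-mers with other genes. Its log2 level was low, from -1.35 through a median of 0.43 to 1.53. It rose by 0.38 ± 0.05 (SE, n = 92) per SD of Kcng4 (limma, adjusted p = 1.90e-08), with slopes of 0.17 to 0.72 in the 5 runs. In the 9 animals it lay between -1.35 and 0.23, which overlapped the -0.72 to 1.53 of the other 83.

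Meak7 lies at chr8:119760076-119778416 on the minus strand, with its start 143 kb from that of Kcng4. Its log2 level ran from 0.41 through a median of 1.65 to 2.61. It rose by 0.27 ± 0.04 (SE, n = 92) per SD of Kcng4 (limma, adjusted p = 2.89e-07), with slopes of 0.05 to 0.43 in the 5 runs. The 9 animals lay between 0.41 and 1.72, and 5 of them were below every other animal. Of its transcript 31-mers, 3.17% also occur in other genes.

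The call for Car7 did not hold without 1 animal. The gene lies at chr8:104534689-104550343 on the plus strand, 15.1 Mb from Kcng4 on the same chromosome. It was weakly expressed, from -3.88 through a median of -0.36 to 1.09, and its lowest value was in the animal lowest for Kcng4. That value is close to -3.86, the value most often found among the lowest values of the table. Car7 rose by 0.44 ± 0.07 (SE, n = 92) per SD of Kcng4 (limma, adjusted p = 9.41e-05). Without the lowest animal the slope was 0.29 and did not pass (limma, adjusted p = 0.159). The call was also lost with all animals kept on the log2(value + 1) scale. Of the 9 animals lowest for Car7, 5 were among the 9 lowest for Kcng4.

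**Figure D2:**
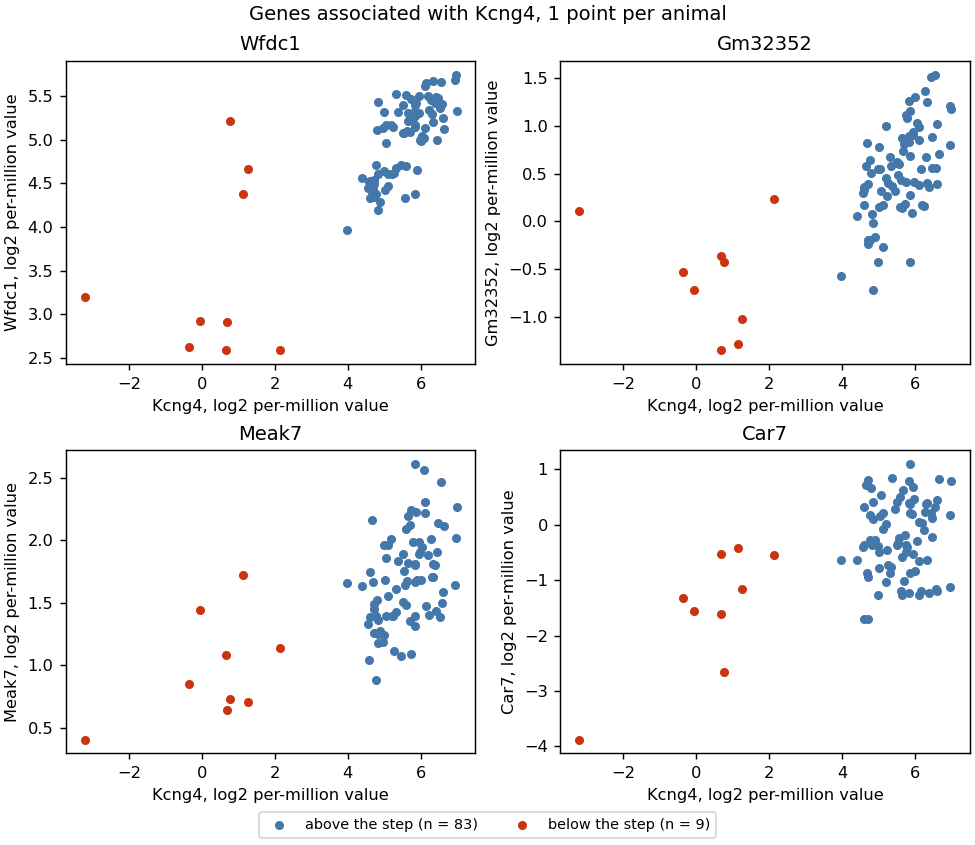
Level of Wfdc1, Gm32352, Meak7 and Car7 (y axes) against that of Kcng4 (x axes), all as deposited log2 per-million values, with 1 point for each of the 92 animals, coloured by whether its Kcng4 level lies below or above the step. Wfdc1 also falls into separate levels, and the lowest Car7 value, -3.88, belongs to the animal lowest for Kcng4.

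Since the levels of Kcng4 fall into separate sets, correlations are given only within them. Among the 83 animals, Wfdc1 followed Kcng4 with Pearson r = 0.731 and Spearman rho = 0.689 (permutation test, adjusted p of at most 0.00038 for each over 76 named genes). The unadjusted p-values were at 1e-05, the smallest that the resamples allow. Without the 2 animals farthest from the median Kcng4 level r was 0.714, and within the runs it lay between 0.613 and 0.937. For Gm32352, r was 0.572 and rho 0.544 (permutation test, adjusted p of at most 0.00038 for each, at the same limit). Its r was 0.526 without 2 animals and 0.479 to 0.717 in the runs. For Meak7, r was 0.438 and rho 0.461 (permutation test, adjusted p = 0.00076 and 0.000507), with r = 0.429 without 2 animals and 0.269 to 0.748 in the runs. For Car7, r was 0.109 and rho 0.102. The 76 genes were named partly for their association over animals that include these 83, so these p-values are no independent support, and the call is that of the fit over all genes.

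The levels of Wfdc1 among these 83 animals were themselves uneven. A step of 0.25 separated 28 animals between 3.96 and 4.71 from 55 between 4.96 and 5.74. Within these sets, defined after the values were seen, r with Kcng4 was 0.461 (rho = 0.385, n = 28) and 0.380 (rho = 0.336, n = 55). These values are a description, with no test. Leaving out the 2 animals farthest from the median Kcng4 level gave r = 0.542 and 0.333. The r of 0.731 over the 83 animals spans these different Wfdc1 levels.

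Fitted by limma in the 83 animals alone, 2 of 13440 genes (0.0149%) were called, Wfdc1 and Gm32352. Each fit expresses its slopes per SD of Kcng4 over its own animals, here 0.68 in place of 1.76. The slope of Wfdc1 was 0.32 ± 0.03 (SE, adjusted p = 1.92e-11) and that of Gm32352 0.27 ± 0.04 (adjusted p = 0.000159). Per log2 unit of Kcng4, the slope of Wfdc1 was 0.31 ± 0.03 in the 92 and 0.46 ± 0.05 in the 83 animals, and that of Gm32352 0.22 ± 0.03 and 0.40 ± 0.06. Meak7 missed the threshold in the 83 animals (limma, adjusted p = 0.0741), with 0.15 ± 0.02 and 0.24 ± 0.05 per log2 unit. The differences between the fits were not tested. Unadjusted p-values under 0.05 were found for 10.4% of genes in this fit. Among the 9 low animals, r with Kcng4 was 0.185 for Wfdc1, -0.305 for Gm32352, 0.471 for Meak7 and 0.808 for Car7. By exact permutation tests, the smallest p of r adjusted over these 4 relations was 0.0711, for Car7, whose rho was 0.60 (adjusted p = 0.387). The 4 genes were called in a fit that includes these 9 animals, so these p-values are no independent support. Without the lowest animal, r in the remaining 8 was 0.214, 0.259, 0.0686 and 0.401 in the same order of genes.

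Correlations among these neighbours within the 83 animals are given as a description, with no test, since the genes were taken for following Kcng4 over animals that include these. Wfdc1 and Gm32352 had r = 0.528 and rho = 0.50. Wfdc1 and Meak7 had r = 0.309 and rho = 0.303, and Meak7 and Gm32352 r = 0.212 and rho = 0.280.

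The association with Kcng4 was concentrated close to the gene. The table held 27 genes with a start within 2 Mb of that of Kcng4, 8 on the side of lower and 19 on the side of higher coordinates. Of these, 3 (11.1%) were called against 0.0298% of all genes tested, and 10 (37.04%) had an unadjusted p under 0.05 against 6.56%. Among the 83 animals, 2 were called and 8 (29.6%) had an unadjusted p under 0.05, against 10.4% of all genes. Their median absolute slope was 0.03, beside 0.02 over all genes. All 3 called genes lie within 0.2 Mb, where the table held 6 genes and 5 had an unadjusted p under 0.05. From 0.2 to 1 Mb the count was 3 of 13, and from 1 to 2 Mb 2 of 8. Beyond, 9.52% of 63 genes at 2 to 5 Mb and 4.84% of 62 genes at 5 to 10 Mb had an unadjusted p under 0.05. The share was 17.9% of 78 genes at 10 to 20 Mb, where Car7 lies, and 7.95% of 352 genes beyond 40 Mb. The 3 nearest bins hold under 20 genes each.

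The adjacent genes on the lower side did not pass. Taf1c, a subunit of the factor that selects RNA polymerase I promoters, lies 30 kb away and had a slope of 0.09 ± 0.03 (limma, adjusted p = 0.523), which was 0.05 ± 0.03 without the animal lowest for Kcng4 and 0.03 ± 0.03 without the 2 farthest animals. Per log2 unit of Kcng4 the slope of Taf1c was 0.05 ± 0.02 over 92 animals, 0.03 ± 0.02 without the lowest, 0.02 ± 0.02 without the 2 farthest and 0.09 ± 0.05 in the 83 animals (limma, adjusted p = 0.452). Hsdl1, a hydroxysteroid dehydrogenase-like protein, had 0.05 ± 0.02 (adjusted p = 0.727). The next genes were Mbtps1, the site-1 protease that activates sterol regulatory factors, at -0.00025 ± 0.02, and Osgin1, an oxidative stress response gene, at -0.01 ± 0.05. On the upper side, Cotl1, an actin-binding protein, lies just beyond Meak7 and had -0.01 ± 0.08. The 95% intervals of these last 3 slopes ran from -0.05 to 0.05 for Mbtps1, from -0.11 to 0.09 for Osgin1 and from -0.16 to 0.15 for Cotl1. The signs of those 3 slopes changed under other settings.

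Beyond these adjacent genes, 5 neighbours had an unadjusted p under 0.05 and are named after their values were seen. The noncoding RNAs A330074K22Rik and A130014A01Rik had slopes of 0.31 ± 0.08 and 0.11 ± 0.03 (limma, adjusted p = 0.20 and 0.262). Crispld2, a secreted cysteine-rich protein, had 0.08 ± 0.03, Mthfsd had -0.09 ± 0.04 and Map1lc3b, which encodes an LC3 protein of autophagosomes, had -0.04 ± 0.02, with adjusted p-values from 0.708 to 0.733. By chromosome, the share of genes with an unadjusted p under 0.05 was highest on chromosome 8, with 71 of 718 genes (9.89%), and lay between 4.64% and 8.20% on the others. Several annotated genes of the interval, among them Adad2, Dnaaf1 and Atp2c2, were not analysed here.

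**Figure D3:**
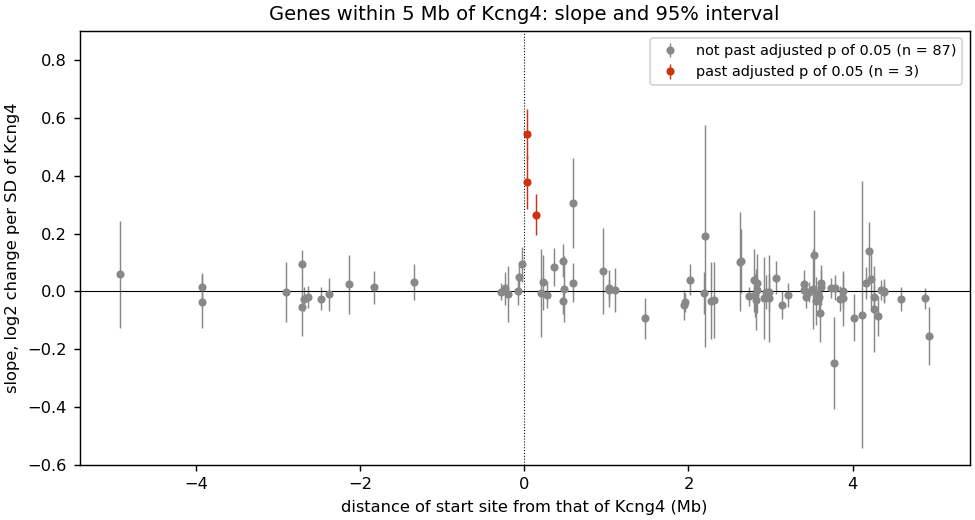
Slope of each of the 90 genes within 5 Mb (y axis, log2 change per SD of Kcng4, with its 95% interval as a bar) against the distance of its start from that of Kcng4 in Mb (x axis). The 3 genes past an adjusted p of 0.05, with slopes of 0.27 to 0.54, all lie within 0.2 Mb on the side of higher coordinates.

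No other potassium channel subunit examined passed the test. Of the list of related silent subunits, the 1 analysed here was Kcnf1, of the Kv5 type, which ranged from -0.73 through 2.31 to 5.10. Its slope was -0.04 ± 0.11, with a 95% interval of -0.26 to 0.19 (limma, adjusted p = 0.984). The slope was -0.14 without the lowest animal, -0.15 without the 2 farthest and 0.22 in the 83 animals (per SD of 0.68), and passed in none of these fits. Of the other Kv channel subunits, 15 of 30 were measured and 0 passed, with slopes from -0.08 to 0.11.

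Across 18 gene lists of muscle channels, fibre types, other cell types, clock genes and insulin signalling, 0 of 172 analysed genes passed the test (limma, smallest adjusted p = 0.172), and 12 (6.98%) had an unadjusted p under 0.05, near the 6.56% of all genes. In the list of sarcolemma excitability and coupling, 23 genes had slopes of -0.10 to 0.06, of which 9 were positive over 92 animals and 14 in the 83. Its member with the smallest p was Cacng1, the gamma subunit of the muscle calcium channel, at -0.10 ± 0.02 (limma, adjusted p = 0.172). Without the 2 animals farthest from the median Kcng4 level Cacng1 passed (slope -0.11, limma, adjusted p = 0.0479), and in the 83 animals it did not (adjusted p = 0.682). Per log2 unit of Kcng4 its slope was -0.06 ± 0.01 in the 92, -0.08 ± 0.02 without those 2 animals and -0.05 ± 0.03 in the 83 animals.

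Fibre type genes did not pass the test in either fit. Of 10 fast fibre genes, 3 had positive slopes over 92 animals (median -0.0044) and 9 in the 83 animals (median 0.03 per SD of 0.68). Without the lowest animal 5 were positive (median -0.0026), and without the 2 farthest 4 were positive (median -0.0099). All 10 slow and oxidative fibre genes had negative slopes, with a median of -0.19, and 0 of 10 passed. Examples were Myl3, the slow myosin light chain, at -0.23 ± 0.15, and Tpm3, the slow tropomyosin, at -0.19 ± 0.11. In the 83 animals all 10 slopes were again negative, with a median of -0.15 per SD of 0.68. Without the animal lowest for Kcng4 all 10 were also negative, but the median was -0.05, with Myl3 at -0.12 and Tpm3 at -0.02. Of 15 clock genes, 11 had positive slopes over 92 and over 83 animals and 0 passed in either fit. Over 92 animals, 4 of the 15 (Dbp, Hlf, Bhlhe40 and Bhlhe41) had an unadjusted p under 0.05, all with positive slopes, against 6.56% of all genes. The steepest was Dbp, a clock output factor, at 0.28 ± 0.09 (limma, adjusted p = 0.523). Bhlhe41, a transcriptional repressor of the clock, had 0.11 ± 0.04 (limma, adjusted p = 0.659). Its slope was 0.07 without the lowest animal, 0.06 without the 2 farthest and 0.13 in the 83 animals (per SD of 0.68). In the 83 animals, the r of Bhlhe41 with Kcng4 was 0.327 and its rho 0.300 (permutation test, adjusted p = 0.0477 and 0.0977 over the 76 named genes). Its r was 0.280 without 2 animals and 0.034 to 0.749 in the runs. Bhlhe41 was named for its r over animals that include these 83, so these p-values are no independent support. The fit over all genes gave an adjusted p of 0.22 (limma). Of 20 insulin signalling genes, 5 had positive slopes over 92 animals and 12 in the 83, and 0 passed. Tbc1d4, the Akt substrate AS160, had -0.16 ± 0.07 (limma, adjusted p = 0.733) over 92 animals and -0.04 ± 0.07 in the 83. The 5 ceramide synthases measured had slopes of -0.02 to 0.02 over 92 animals and of -0.11 to 0.09 in the 83. In the 83 animals Cers4 had -0.11 ± 0.04, Cers1 0.09 ± 0.03 and Cers2 -0.06 ± 0.02 (limma, adjusted p from 0.287 to 0.325), and the sign for Cers2 was opposite to its 0.02 over 92 animals. The denervation and endplate list (11 genes), the immediate early genes (8) and the satellite cell markers (2) had 0 passing genes and median slopes of 0.0065, -0.0047 and -0.05 over 92 animals. In the 83 animals these medians were -0.06 (1 of 11 positive), -0.14 (0 of 8 positive) and -0.01 (0 of 2 positive). Without the lowest animal, the denervation median was -0.03 (2 of 11 positive, against 6 of 11 over 92 animals) and the immediate early median 0.01 (5 of 8 positive, against 3 of 8). Without the 2 farthest animals, these medians were -0.036 (2 of 11 positive) and -0.035 (1 of 8 positive). The median slope of all genes was 0.00055 over 92 and -0.00093 in the 83 animals.

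**Figure D4:**
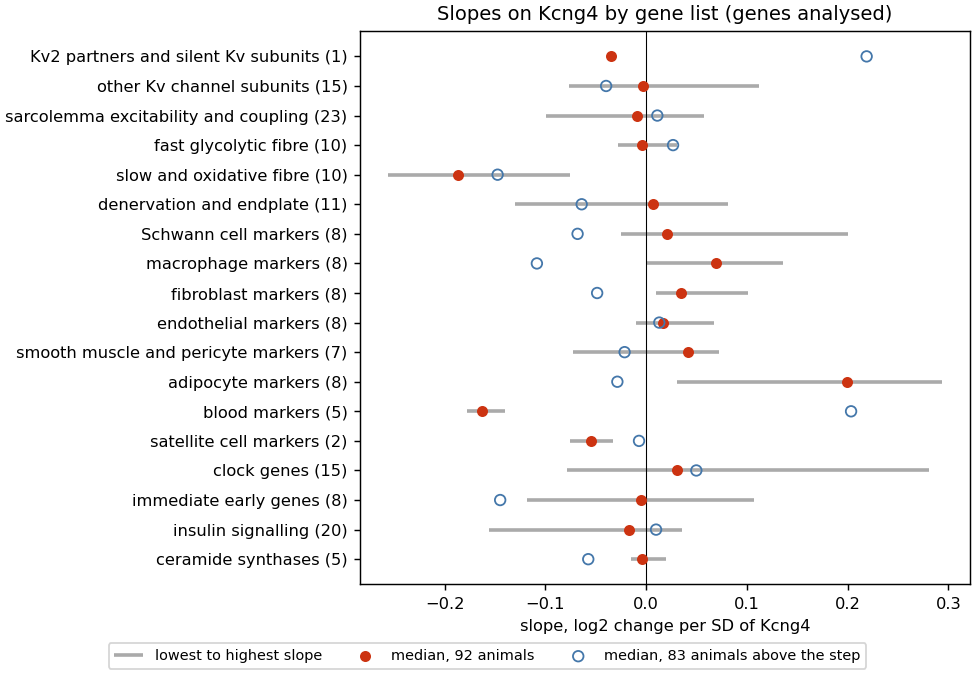
Slopes on Kcng4 (x axis, log2 change per SD of Kcng4) for the genes analysed of each of the 18 lists (y axis, their number in parentheses). Grey bars run from the lowest to the highest slope in 92 animals, filled points are medians in 92 animals and open points medians in the 83 animals above the step, per SD of Kcng4 over those animals, and 0 of the 172 genes passed the test.

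No marker of another cell type passed the test, and the signs of the slopes in several marker lists differed between the 92 and the 83 animals. These counts of signs were not tested, and the genes of a list are not independent of one another. All 8 adipocyte markers had positive slopes over 92 animals, with a median of 0.20, as did all 8 macrophage markers (median 0.07) and all 8 fibroblast markers (median 0.03). In the 83 animals, 1, 0 and 0 of them had positive slopes. The 5 blood markers reversed in the other direction, from a median of -0.16 with 0 positive to 0.20 with 5 positive (per SD of 0.68). Their median was -0.14 with 0 positive without the lowest animal and 0.07 with 4 positive without the 2 farthest animals, which are the 2 lowest for Kcng4. Schwann cell, endothelial and smooth muscle markers had median slopes of 0.02, 0.02 and 0.04 over 92 animals and of -0.07, 0.01 and -0.02 in the 83. Without the lowest animal, the Schwann cell median was 0.012 (4 of 8 positive, against 6 of 8 over 92 animals) and the endothelial median 0.0018 (4 of 8, against 7 of 8). Within the 83 animals, the scores of these 7 lists, each the mean of its standardised genes, had r with Kcng4 of -0.186 to 0.205 (permutation test, smallest adjusted p = 0.317). With the 7 scores as covariates, Wfdc1, Gm32352, Meak7 and Car7 were called as before, and the slope of Wfdc1 was 0.56.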

How the data were processed

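The authors deposited a single table, in which each column is a sample (92 in all) and each value a log2 expression level of a gene. The unit was read from the values: raised to the power of 2, they sum to between 898071 and 1140761 per sample, so they are close to log2 per-million values. The exact scaling and any prior count are not given in the sources used here. The submitters' processing notes name kallisto 0.50.1, edgeR, bcl2fastq, MultiQC and mm10, without their roles. Libraries were made with a KAPA mRNA kit, per the labels' protocols. Read depth per library is unknown, so precision comes from the spread between animals.

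After 15 repeated lines of 13456 were removed, 13441 genes remained, of which 13255 identifiers were found in GENCODE M21 and 186 were not. All value columns matched a sample title. No libraries were duplicates: across 4186 sample pairs, the root mean square difference in log2 value was at least 0.521.

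Slopes on the standardised Kcng4 level were fitted with limma 3.58.1 (R 4.3.3) with a mean-variance trend and called at an adjusted p under 0.05. The code of the fit was also run on simulated data, which says nothing about these animals. Correlations were tested by two-sided permutation, with 100000 resamples (smallest possible p 1e-05) or, in the 9 low animals, by exact enumeration. They had been planned over all 92 animals and are given within the sets because the levels of Kcng4 separate. The step was the widest with at least 5 animals on each side and was chosen after seeing the data.

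Named genes were Kcng4, up to 12 called genes in each direction with a mean of at least 1, called neighbours within 2 Mb, the 4 adjacent genes of the table on each side, the measured subunits of the Kv2 and silent subunit list (1 item of which is not reported here), and up to 4 genes of each list with the largest absolute r. The gene and the 18 lists were chosen with earlier results of these data known. Alternatives were the title-number run, 3 principal components or 7 marker scores as covariates, another scale, filter, centring, predictor shape or variance model, other windows, and leaving out animals.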

Additional observations from a re-analysis of the deposited data

How the results depend on the processing

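Wfdc1 was called in every fit run. The count of 4 associated genes stayed between 3 and 5 in all fits but 2: it was 2 among genes with a mean of at least 1, where Gm32352 and Car7 were not tested, and 2 in the 83 animals above the step, a setting chosen after seeing the data. The 3 called neighbours became 2 in those same fits. The SD of Kcng4 was 0.68 in the 83 animals and otherwise 1.42 to 1.76. Car7 lost its call on the log2(value + 1) scale (slope 0.14, limma, adjusted p = 0.12), with normal scores of Kcng4, without the 2 farthest animals (0.28, adjusted p = 0.216), without the lowest animal and in the 83 animals (0.07, adjusted p = 0.785). The cause was not tested. With principal components as covariates 1 further gene, Gm53015, was called.

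Of 76 named genes, 34 had the opposite sign in the 83 animals, 8 without the 2 farthest animals and 3 without the lowest, and 0 of these passed in either fit. Values follow for adjacent genes, Kcnf1 and list genes with an unadjusted p under 0.05. With the title-number run they became 0.0050 for Mbtps1, 0.0051 for Osgin1 and 0.00025 for Cotl1. With principal components, Osgin1 was 0.032 and Kcnf1 0.048. With marker scores, Mbtps1 was 0.00093, Osgin1 0.0098 and Kcnf1 0.010. Without the 2 farthest animals, Mbtps1 was 0.0067. Without the lowest animal, Osgin1 was 0.017. In the 83 animals (per SD of 0.68), Osgin1 was 0.0045, Kcnf1 0.22, Ncmap -0.085, Plin1 -0.033 and Retn -0.010. No paired analysis was possible because the labels give 1 group. Depth is unknown, and genes near the lowest values of the table, such as Car7, are the least certain.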
